A study of Arabidopsis thaliana with 12 samples.

Results

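Transcripts of 9 cold and drought response genes of Arabidopsis thaliana were compared across 2 genotypes and 2 light conditions. The genes were taken by a list of identifiers: RD29A (AT5G52310), RD29B (AT5G52300), RAB18 (AT5G66400), COR15A (AT2G42540), COR15B (AT2G42530), COR47 (AT1G20440), KIN1 (AT5G15960), KIN2 (AT5G15970) and LTI30 (AT3G50970). They are 9 of the 32833 genes in the raw count table. Of these 9, 8 passed the filter on low counts and were tested among 19711 genes. COR15B did not pass.

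Whole seedlings of Columbia, either the wild type Col-0 or bbx28-5, a line named for a B-box zinc finger gene, formed 4 groups of 3 biological replicates each. These were bbx28-5 in simulated shade, bbx28-5 in white light, Col-0 in simulated shade and Col-0 in white light. Seedlings had grown for 2 days in days of 10 h light and 14 h dark, and on the following day were shaded under a green filter or left in white light for 4 h. Shade lowered the photosynthetically active radiation to 20, against 90 µmol per square metre per second in white light, and the red to far-red ratio to 0.145, against 1.1. All 4 groups came from seeds imbibed in the cold before germination, and the labels name no cold, drought or hormone treatment of the seedlings in any group. The sources used here do not give the lesion in bbx28-5. P values measure the spread between these 12 libraries.

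The 9 genes encode mostly very hydrophilic proteins that accumulate when plant cells lose water through freezing, drought or salt. A pair of transcription factor arms is known to act on them: CBF (DREB1) and DREB2 proteins, which bind the dehydration-responsive or C-repeat element with the core CCGAC, and the abscisic acid pathway, in which ABF proteins bind elements with the core ACGTG. CBF genes are themselves known to be under the control of phytochrome, the clock and PIF factors, and a low ratio of red to far-red light is known to raise them.

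The 2 cores were searched on both strands from 250 bases before to 50 bases after each annotated start in the TAIR10.1 assembly; the labels name TAIR10 as the build, and the deposited tables hold no coordinates. CCGAC was found in this window in 4 of the 9 genes (RD29A, RD29B, COR15A and LTI30), against 15% of 27443 genes. ACGTG was found in 6 of the 9 (RD29B, RAB18, COR15A, KIN1, KIN2 and LTI30), against 26.7%. The G-box CACGTG, which holds the ACGTG core, was found in 2 of the 9 (COR15A and KIN2), against 7.68%, and AAATATC, the core of evening elements of clock-controlled genes, in 4 of the 9 (RD29A, RAB18, KIN1 and LTI30), against 14.2%. The 500 bases before the start codon were searched as well, a window chosen after the first counts were seen. In that window CCGAC and ACGTG each occurred in all 9 genes, against 23.4% and 34.9% of genes. The window can reach past the annotated start into the transcript model. There lay every match of COR15B and COR47 to either core. There also lay the only CCGAC of RAB18, KIN1 and KIN2 and the only ACGTG of RD29A and LTI30 in it. A match is a description of letters and was not tested as a binding site.

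The 250 bases before the annotated start are printed for 4 genes that differed in their measured pattern and whose window overlaps no exon of another gene. RD29A and RD29B are neighbours on chromosome 5, at chr5:21240717-21243644 and chr5:21237021-21239531, both on the plus strand. COR15A lies on the minus strand at chr2:17710441-17712330, and COR47 on the minus strand at chr1:7084409-7086873. Each sequence runs 5′ to 3′ on the strand of its gene, from RefSeq's TAIR10.1 assembly, and capitals mark CCGAC and ACGTG on either strand.
RD29A, chr5:21240467-21240716: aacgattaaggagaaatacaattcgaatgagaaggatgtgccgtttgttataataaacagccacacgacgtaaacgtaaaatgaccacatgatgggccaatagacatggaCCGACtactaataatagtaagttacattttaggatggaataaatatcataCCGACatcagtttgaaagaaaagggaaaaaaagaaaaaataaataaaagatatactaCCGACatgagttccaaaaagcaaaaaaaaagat
RD29B, chr5:21236771-21237020: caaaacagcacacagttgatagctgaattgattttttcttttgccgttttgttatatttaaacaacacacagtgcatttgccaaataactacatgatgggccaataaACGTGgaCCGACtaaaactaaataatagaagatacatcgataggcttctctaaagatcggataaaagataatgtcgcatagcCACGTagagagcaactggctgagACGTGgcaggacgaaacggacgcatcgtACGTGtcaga
COR15A, chr2:17712331-17712580: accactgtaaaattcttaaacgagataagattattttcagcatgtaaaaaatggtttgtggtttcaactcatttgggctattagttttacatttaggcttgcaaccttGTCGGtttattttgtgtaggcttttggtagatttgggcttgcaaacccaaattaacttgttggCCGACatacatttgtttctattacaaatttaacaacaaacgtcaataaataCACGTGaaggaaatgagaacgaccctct
COR47, chr1:7086874-7087123: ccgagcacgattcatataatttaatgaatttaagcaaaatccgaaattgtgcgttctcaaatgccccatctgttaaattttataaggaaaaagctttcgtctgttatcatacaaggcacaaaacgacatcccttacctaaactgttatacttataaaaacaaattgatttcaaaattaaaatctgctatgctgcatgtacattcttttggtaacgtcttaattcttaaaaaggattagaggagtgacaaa
In these 250 bases RD29A held 3 matches to CCGAC and 0 to ACGTG. RD29B held 1 to CCGAC and 4 to ACGTG. COR15A held 2 of each, its ACGTG matches being both strands of 1 G-box, and COR47 held 0 of either.

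Total counts ran from 10614484 to 14298869 per library, so the floor of 3 counts stood at 0.200 to 0.346 CPM (counts scaled to a common library size, with TMM factors from the trimmed mean of M values). Green tissue markers summed to between 23395 and 48327 CPM and root markers to between 1653 and 3650 CPM over the 12 libraries, while WUS of the shoot meristem had at most 1 count in any library. Of 4 reference genes, shade raised 4 in bbx28-5 and 2 in Col-0, with median log2 fold changes of 0.55 and 0.33. BBX28 itself (AT4G27310) was not lower in the libraries labelled bbx28-5: it was higher than in Col-0 by a log2 fold change of 0.65 ± 0.123 (SE) in shade and 0.57 ± 0.124 in white light (edgeR quasi-likelihood test, Benjamini-Hochberg adjusted p = 0.00122 and 0.0101). With the lesion not given, its transcript level does not check the genotype label, and bbx28-5 below means the libraries so labelled. In bulk RNA, fewer cells of a type and less RNA per cell cannot be told apart.

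Libraries that stood apart from their group were present in 2 of the 4 groups. In Col-0 white light, replicate 3 was at least 2-fold above the mean log2 CPM of replicates 1 and 2 for 6 of the 8 tested genes (RD29A, RD29B, RAB18, COR15A, KIN1 and LTI30), against 0.868% of all tested genes (171 genes). RAB18 read 267 CPM in replicate 3, against 30.8 and 22.1 CPM in replicates 1 and 2. The ratio of replicate 3 to their mean was 9.58 for COR15A, 5.70 for RD29B, 5.60 for KIN1, 3.06 for RD29A and 2.56 for LTI30, and 1.39 for KIN2 and 1.01 for COR47. Replicate 2 of bbx28-5 in shade differed more broadly: 840 genes stood at least 2-fold above and 1311 at least 2-fold below the other 2 libraries, among them RD29A and RD29B below and COR15A above. Results are therefore given with all 12 libraries and, for the comparisons described below, also without Col-0 white light replicate 3. That library was singled out by its values in these same genes, so p values without it are descriptive. Col-0 white light then holds only replicates 1 and 2. Over all tested genes it had fewer 2-fold differences (171 above and 58 below) than bbx28-5 shade replicate 1, which was kept (383 and 359). Values without the other library are given where they change a call.

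The height of Col-0 white light replicate 3 was shared with some genes of the same pathways and not with others. Of 22 other cold and drought targets, 7 were at least 2-fold higher in it and 1 lower. LTP4, a lipid transfer protein gene, read 59.4 CPM in it, against 0.607 and 0.230 CPM in replicates 1 and 2, and ADH1, which encodes alcohol dehydrogenase, read 19.5 CPM, against 1.15 and 2.00 CPM. Of 31 genes of the abscisic acid pathway, 3 were at least 2-fold higher, all of them HAI genes for protein phosphatases that abscisic acid induces. Of 14 tested cold and drought regulators none was that much higher and 1, RAP2.1, was lower, and of 9 light and clock factors none passed in either direction. Of 7 tested flavonoid genes 3 were at least 2-fold higher as well, and so were 3 of 6 seed maturation markers, although their summed level in it, 53.8 CPM, was the lowest of the group. Reference genes summed to 1431 CPM in replicate 3, within the 1429 to 1465 CPM of the group. What set this library apart was not tested.

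**Figure D1:**
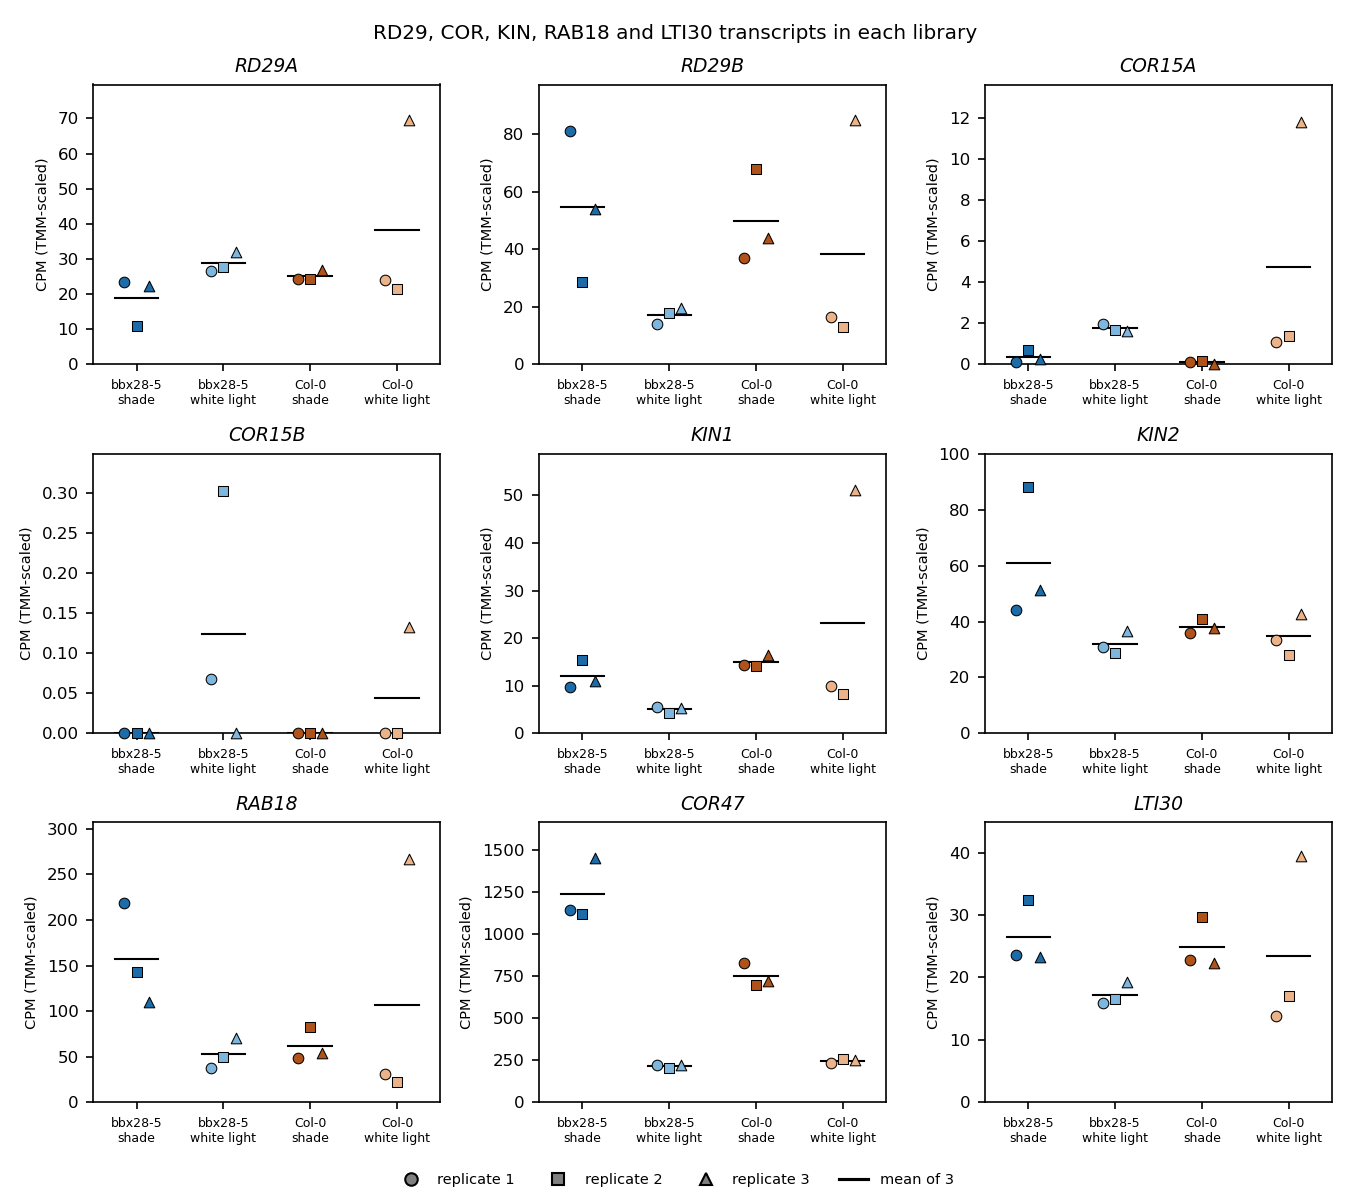
TMM-scaled CPM of the 9 genes in each of 12 libraries (y axes start at 0 and differ between panels); symbols mark the replicate number and bars the mean of 3. Replicate 3 of Col-0 in white light is the highest library of its group in 8 panels, while COR47 shows 3 close values per white light group and higher values in both shade groups.

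**Figure D2:**
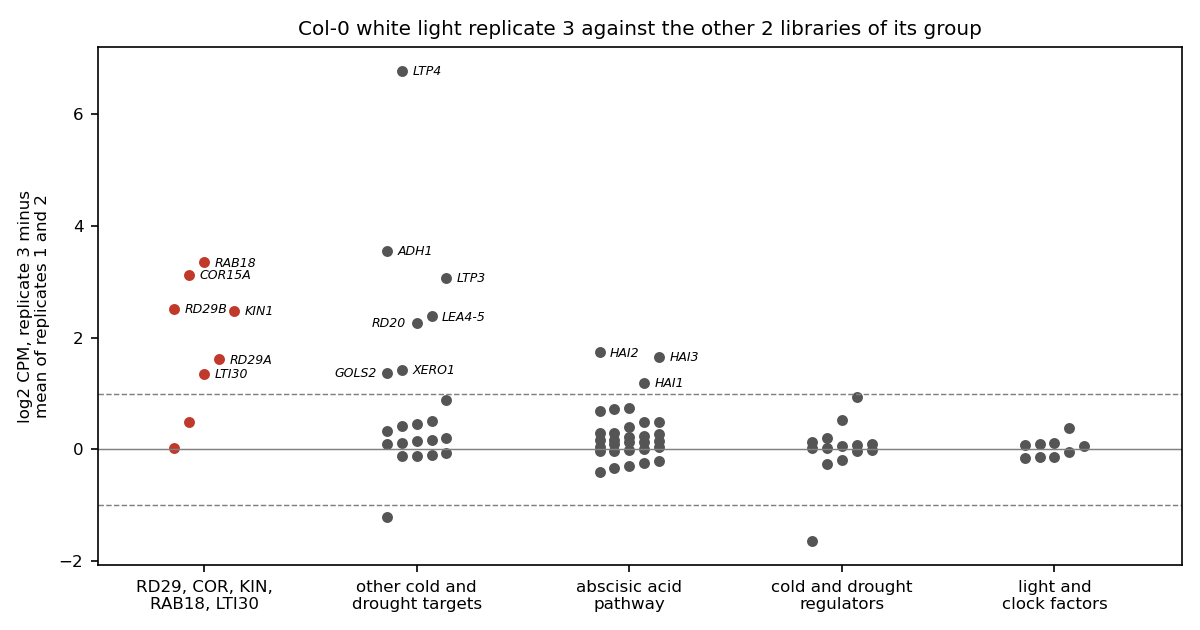
Each point is 1 tested gene; the y axis is log2 CPM in Col-0 white light replicate 3 minus the mean of replicates 1 and 2, and dashed lines mark 2-fold. Of the 8 genes in red, 6 lie above the upper line; genes of other lists above it are named.

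Per length of transcript model COR47 had the highest mean level in every group. On the scale of CPM per kilobase it averaged 535 ± 79.3 in bbx28-5 shade, 93.8 ± 4.70 in bbx28-5 white light, 323 ± 31.1 in Col-0 shade and 106 ± 5.22 in Col-0 white light (SD, n = 3 each). RAB18 came next in bbx28-5 shade at 144 ± 51.4, ahead of KIN2 at 81.5 ± 31.5, but the spreads (mean ± SD) of these 2 overlapped. RAB18 and KIN2 also had overlapping spreads in bbx28-5 white light, at 48.2 ± 15.1 and 42.8 ± 5.35, and in Col-0 shade, at 56.9 ± 16.6 and 50.8 ± 3.53. In Col-0 white light RAB18 averaged 97.9 ± 127, which overlapped COR47, and in replicate 3 it stood at 245, against 107 for COR47. LTI30, KIN1, RD29B and RD29A followed with group means between 6.09 and 27.9, and COR15A had group means between 0.0616 and 3.0. COR15B had no more than 4 counts in any library.

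Of the 3 dehydrin genes COR47 rose in shade in both genotypes, more so in bbx28-5, and kept these calls with and without the library above, whereas the calls of RAB18 and LTI30 depended on the libraries included. COR47, a dehydrin of the acidic type thought to protect membranes and proteins, read 1145, 1124 and 1453 CPM in bbx28-5 shade, against 225, 205 and 223 CPM in bbx28-5 white light. The Col-0 values of COR47 were 832, 697 and 720 CPM in shade, against 234, 258 and 249 CPM in white light. Every shade library exceeded every white light library, and every bbx28-5 shade library exceeded every Col-0 shade library, whereas the white light groups lay close together. Shade raised COR47 by a log2 fold change of 2.51 ± 0.116 in bbx28-5 and 1.60 ± 0.113 in Col-0 (edgeR quasi-likelihood test over all tested genes, Benjamini-Hochberg adjusted p = 3.0e-10 and 2.98e-08). In shade it was higher in bbx28-5 than in Col-0 by 0.73 ± 0.110 (adjusted p = 2.47e-04, edgeR), while in white light the difference was -0.18 ± 0.111 (adjusted p = 0.387). That white light difference passed, at -0.18 (adjusted p = 0.0204), when only the groups compared were fitted. The shade effect in bbx28-5 exceeded that in Col-0 by 0.91 ± 0.156 on the log2 scale (adjusted p = 0.00322, edgeR). Without Col-0 white light replicate 3 the shade effects were 2.51 and 1.61, the genotype difference in shade 0.72 and the difference of the shade effects 0.90 (adjusted p = 0.0125, edgeR).

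RAB18 (chr5:26518277-26519447, minus strand), a dehydrin gene widely used as a marker of abscisic acid response, read 219, 142 and 110 CPM in bbx28-5 shade, against 37.4, 49.8 and 70.1 CPM in bbx28-5 white light. In Col-0 RAB18 read 49.0, 82.5 and 54.2 CPM in shade, against 30.8, 22.1 and 267 CPM in white light. The bbx28-5 groups did not overlap, and in Col-0 the 3 shade libraries lay between replicates 1 and 2 and replicate 3 of white light. In the edgeR fit of all 12 libraries no RAB18 comparison passed: the shade effect was 1.59 ± 0.682 in bbx28-5 and -0.79 ± 0.668 in Col-0 on the log2 scale (edgeR, adjusted p = 0.0526 and 0.328). Without Col-0 white light replicate 3 RAB18 rose in shade in both genotypes, by 1.59 ± 0.283 in bbx28-5 and 1.23 ± 0.329 in Col-0 (adjusted p = 2.68e-04 and 0.00695, edgeR). In that fit it was also higher in bbx28-5 than in Col-0 in shade, by 1.33 ± 0.281 (adjusted p = 0.00325), and the difference of the shade effects was 0.36 ± 0.423 (adjusted p = 0.656), against 2.37 ± 0.954 (adjusted p = 0.130) with all libraries. Leaving out bbx28-5 shade replicate 2 instead gave 2.48, past the threshold (adjusted p = 0.0261, edgeR), and 1.44 for the genotype difference in shade (adjusted p = 0.0482). The shade effect in bbx28-5 also passed without bbx28-5 shade replicate 2 or 3 or Col-0 white light replicate 1 or 2 (adjusted p = 0.0160, 0.0499, 0.0358 and 0.0224). With all 12 libraries it passed under limma with sample weights, without a filter on low counts and when only the groups compared were fitted (adjusted p = 0.00533, 0.0306 and 0.00213), and the genotype difference in shade passed under limma with sample weights and with only the groups compared (adjusted p = 0.0348 and 0.0178). RAB18 overlaps AT5G66410 on the opposite strand, and the sources used here do not give the strand setting of the counting, so reads of the 2 genes may not be separated.

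LTI30 (chr3:18940643-18941611, plus strand), also called XERO2, a dehydrin induced by cold, read 23.6, 32.4 and 23.3 CPM in bbx28-5 shade, against 15.9, 16.6 and 19.3 CPM in bbx28-5 white light. LTI30 in Col-0 read 22.8, 29.7 and 22.4 CPM in shade, against 13.8, 17.0 and 39.5 CPM in white light. The shade libraries of both genotypes overlapped in range, and all white light libraries but Col-0 replicate 3 lay below them. The shade effect was 0.61 ± 0.304 in bbx28-5 and 0.08 ± 0.292 in Col-0 (edgeR, adjusted p = 0.0882 and 0.823), and without that library 0.61 ± 0.160 and 0.70 ± 0.179, both past the threshold (adjusted p = 0.00433 and 0.00537). The genotype difference in shade was 0.08 ± 0.297 on the log2 scale with all libraries (adjusted p = 0.858) and 0.07 ± 0.157 without it (adjusted p = 0.762).

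RD29A and RD29B encode related hydrophilic proteins and are neighbours on the chromosome, RD29A being known to answer both cold and drought and RD29B mainly abscisic acid. RD29B read 81.0, 28.7 and 54.1 CPM in bbx28-5 shade, against 14.1, 17.7 and 19.5 CPM in bbx28-5 white light. In Col-0 RD29B read 37.1, 67.8 and 44.0 CPM in shade, against 16.6, 13.1 and 84.7 CPM in white light. Apart from Col-0 replicate 3, every white light library lay below every shade library. RD29B rose in shade in bbx28-5 by 1.68 ± 0.574 (edgeR, adjusted p = 0.0183), a call that was lost without bbx28-5 shade replicate 1 (1.27, adjusted p = 0.0841) or without bbx28-5 white light replicate 1 (1.56, adjusted p = 0.0632), or with total counts as the scaling (1.36, adjusted p = 0.0508). In Col-0 the effect was 0.37 ± 0.541 (adjusted p = 0.578) with all libraries and 1.74 ± 0.367 (adjusted p = 0.00144, edgeR) without white light replicate 3. The difference of the shade effects was then -0.05 ± 0.472 (adjusted p = 0.958).

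RD29A read 23.5, 10.9 and 22.4 CPM in bbx28-5 shade, against 26.6, 27.7 and 32.0 CPM in bbx28-5 white light. RD29A in Col-0 read 24.3, 24.2 and 26.8 CPM in shade, against 23.9, 21.5 and 69.5 CPM in white light. The lowest value was bbx28-5 shade replicate 2 and the highest Col-0 white light replicate 3, and the other 10 libraries lay between 21.5 and 32.0 CPM. In the edgeR fit of all 12 libraries no RD29A comparison passed: the shade effect was -0.60 ± 0.378 in bbx28-5 and -0.61 ± 0.359 in Col-0 (edgeR, adjusted p = 0.176 and 0.156). With total counts as the scaling the effect in bbx28-5 was -0.92, past the threshold (adjusted p = 0.0491), where that scaling moves the median of all genes by -0.34. Without Col-0 white light replicate 3 RD29A fell in shade in bbx28-5, by -0.59 ± 0.209 (adjusted p = 0.0231), and the effect in Col-0 was 0.15 ± 0.227 (adjusted p = 0.607). With bbx28-5 shade replicate 2 left out as well, the effect in bbx28-5 was -0.32 ± 0.102 (adjusted p = 0.00639, edgeR). The effect in Col-0 passed as a fall without bbx28-5 shade replicate 2 (-0.67, adjusted p = 0.0274) or Col-0 white light replicate 2 (-0.89, adjusted p = 0.0464). The genotype difference in shade was -0.40 ± 0.379 with all libraries and -0.41 ± 0.209 without white light replicate 3 (adjusted p = 0.442 and 0.154, edgeR).

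The COR15 genes encode proteins of the chloroplast stroma that stabilize membranes during freezing, and here they were close to the limit of detection. COR15A had 1, 6 and 3 counts in bbx28-5 shade, against 29, 22 and 19 counts in bbx28-5 white light. In Col-0 it had 2, 2 and 0 counts in shade, against 16, 18 and 177 counts in white light. All white light libraries exceeded all shade libraries in both genotypes. COR15A fell in shade in Col-0, by a log2 fold change of -5.51 ± 1.15 with all libraries (edgeR, adjusted p = 8.70e-04) and of -3.54 ± 0.640 without white light replicate 3 (adjusted p = 4.55e-04). In bbx28-5 the effect was -2.31 ± 1.16 (adjusted p = 0.0929), and -2.30 ± 0.485 and past the threshold without that library (adjusted p = 9.64e-04). With bbx28-5 shade replicate 2 left out instead it was -3.11 ± 1.31 (adjusted p = 0.0379, edgeR), and without Col-0 white light replicate 1 -2.33 (adjusted p = 0.0452). The genotype difference in shade was 1.76 ± 1.99 with all libraries and 1.75 ± 0.818 without Col-0 white light replicate 3 (adjusted p = 0.524 and 0.120, edgeR). COR15B had 0 counts in all 6 shade libraries and in 3 of the 6 white light libraries, with 1 and 4 counts in bbx28-5 replicates 1 and 2 and 2 counts in Col-0 replicate 3. It overlaps AT2G42520 on the opposite strand and was not tested.

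KIN1 and KIN2, also neighbours, encode small alanine-rich proteins induced by cold and abscisic acid, and the 2 transcript models share 1 stretch of 50 bases (KIN1 at chr5:5209717-5210826, KIN2 at chr5:5211719-5212743, both plus strand). KIN1 read 9.79, 15.5 and 10.98 CPM in bbx28-5 shade, against 5.58, 4.32 and 5.25 CPM in bbx28-5 white light. KIN1 in Col-0 read 14.3, 14.2 and 16.5 CPM in shade, against 9.98, 8.29 and 51.1 CPM in white light. Every bbx28-5 white light library was below every other library. KIN1 was lower in bbx28-5 than in Col-0 in white light, by -2.20 ± 0.550 with all libraries (edgeR, adjusted p = 0.0208) and by -0.86 ± 0.201 without Col-0 white light replicate 3 (adjusted p = 0.0216). The call with all libraries was lost when any 1 of the 3 bbx28-5 white light libraries was left out, with fold changes of similar size (-2.29, -2.10 and -2.23 without replicates 1, 2 and 3, adjusted p = 0.0664, 0.0943 and 0.0799). The shade effect on KIN1 was 1.25 ± 0.587 in bbx28-5 and -0.63 ± 0.488 in Col-0 with all libraries (adjusted p = 0.0736 and 0.284, edgeR). Without Col-0 white light replicate 3 it rose in shade in both, by 1.25 ± 0.185 in bbx28-5 and 0.72 ± 0.187 in Col-0 (adjusted p = 5.30e-05 and 0.00570). The bbx28-5 effect also passed without Col-0 white light replicate 1 or 2 (adjusted p = 0.0494 and 0.0347).

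KIN2 read 44.1, 88.1 and 51.2 CPM in bbx28-5 shade, against 30.8, 28.9 and 36.6 CPM in bbx28-5 white light. In Col-0 KIN2 read 35.7, 41.0 and 37.6 CPM in shade, against 33.6, 27.9 and 42.9 CPM in white light. The bbx28-5 shade libraries were the 3 highest of all, replicate 2 far above the others, and the remaining groups overlapped. KIN2 rose in shade in bbx28-5 by 0.93 ± 0.219 (edgeR, adjusted p = 0.00177), or by 0.56 ± 0.128 without shade replicate 2 (adjusted p = 4.56e-04). In Col-0 the effect was 0.13 ± 0.217 (adjusted p = 0.631), and 0.31 ± 0.233 without white light replicate 3 (adjusted p = 0.281). In shade KIN2 was higher in bbx28-5 than in Col-0 by 0.68 ± 0.216 (edgeR, adjusted p = 0.0255) and by 0.35 ± 0.125 without bbx28-5 shade replicate 2 (adjusted p = 0.0254), and by 0.67 ± 0.206 without Col-0 white light replicate 3 (adjusted p = 0.0250). That call was lost without any 1 of the 3 Col-0 shade libraries, with fold changes of similar size (0.62, 0.72 and 0.66, adjusted p = 0.0879, 0.0507 and 0.0758). It was also lost when only the groups compared were fitted (0.60, adjusted p = 0.101) and with total counts as the scaling (0.36, adjusted p = 0.161). The difference of the shade effects on KIN2 was 0.80 ± 0.307 (adjusted p = 0.114), and passed without bbx28-5 shade replicate 1 (1.01, adjusted p = 0.0319) or replicate 2 (0.48, adjusted p = 0.0430).

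Over the 8 tested genes, shade in bbx28-5 raised 3 (RD29B, COR47 and KIN2) and lowered none at an adjusted p under 0.05, where 67.5% of all tested genes passed in either direction. In Col-0 it raised 1 (COR47) and lowered 1 (COR15A), where 59.4% passed. Between genotypes 2 were higher in bbx28-5 in shade (COR47 and KIN2), where 35.4% of genes passed. In white light 1 was lower (KIN1), where 9.88% passed, and the shade effects differed for 1 (COR47), where 10.3% passed. These shares lay below the background in the first 3 comparisons and near it in the last 2. The first depended on the fit. With only the bbx28-5 groups fitted, RAB18, KIN1 and LTI30 also rose in shade (edgeR, adjusted p = 0.00213, 0.000976 and 0.0131). COR15A also fell in that fit (edgeR, adjusted p = 0.00212). The share of all genes passing in it is not given here. In the fit of all 12 libraries the median log2 fold change of the 8 was 1.09 for shade in bbx28-5 and -0.27 for shade in Col-0. It was 0.41 between genotypes in shade and -0.74 in white light. The medians of all tested genes lay between -0.02 and 0.03.

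Without Col-0 white light replicate 3, shade in bbx28-5 raised 6 of the 8 and lowered 2 (RD29A and COR15A), against 66.3% of genes passing. Shade in Col-0 raised 5 (RD29B, RAB18, COR47, KIN1 and LTI30) and lowered 1 (COR15A), against 53.2%. Between genotypes 3 were higher in bbx28-5 in shade (RAB18, COR47 and KIN2), against 33% of genes. In white light 1 was lower (KIN1), against 6.98%, and the shade effects differed for 1 (COR47), against 6.17%. The median log2 fold change in Col-0 shade was then 0.71, and between genotypes in white light 0.17, so both medians changed sign with this 1 library. Its 6 opposite values in white light are RD29A, RD29B, RAB18, COR15A, KIN2 and LTI30, none of them past the threshold in either fit. In bbx28-5, whose libraries are the same in both fits, the fold changes hardly moved, while the SE of RAB18 was 0.283 without the library, against 0.682 with it. All groups share 1 estimate of the spread in these fits. The library was left out because of its values in these same genes, so smaller SE and further calls for them follow in part from that choice.

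**Figure D3:**
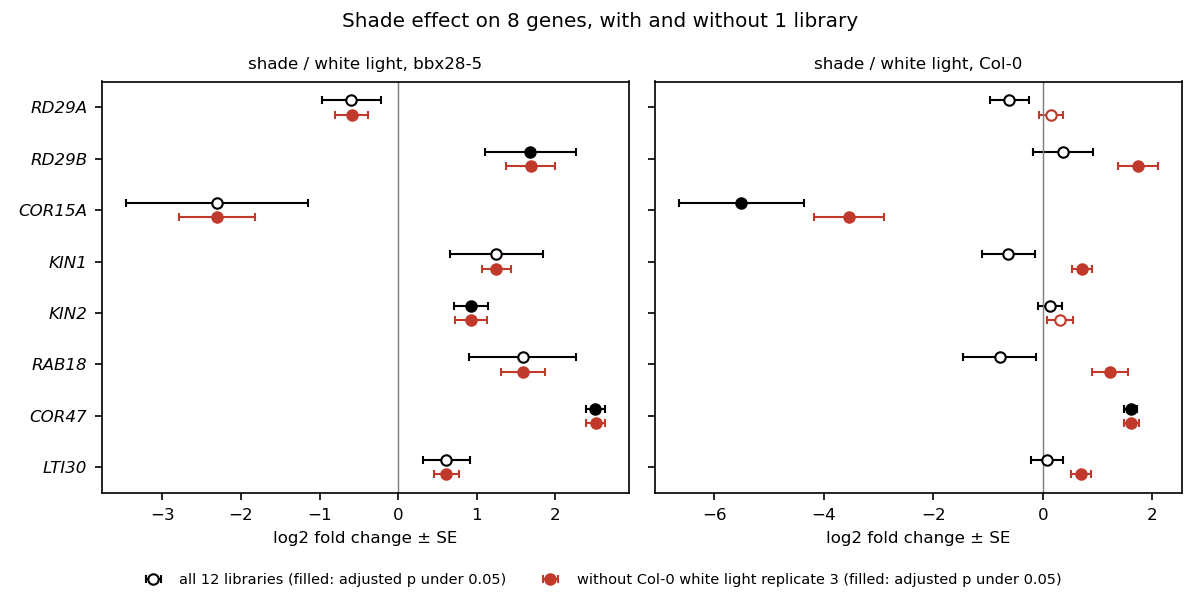
Log2 fold change of shade over white light (x axis, with SE) for 8 genes in bbx28-5 and in Col-0; black points use all 12 libraries, red points leave out Col-0 white light replicate 3, and filled points have an adjusted p under 0.05. In bbx28-5 the points keep their place and the error bars of all genes but COR47 shrink, while in Col-0 the black points lie left of the red ones, those of COR47 nearly coinciding.

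**Figure D4:**
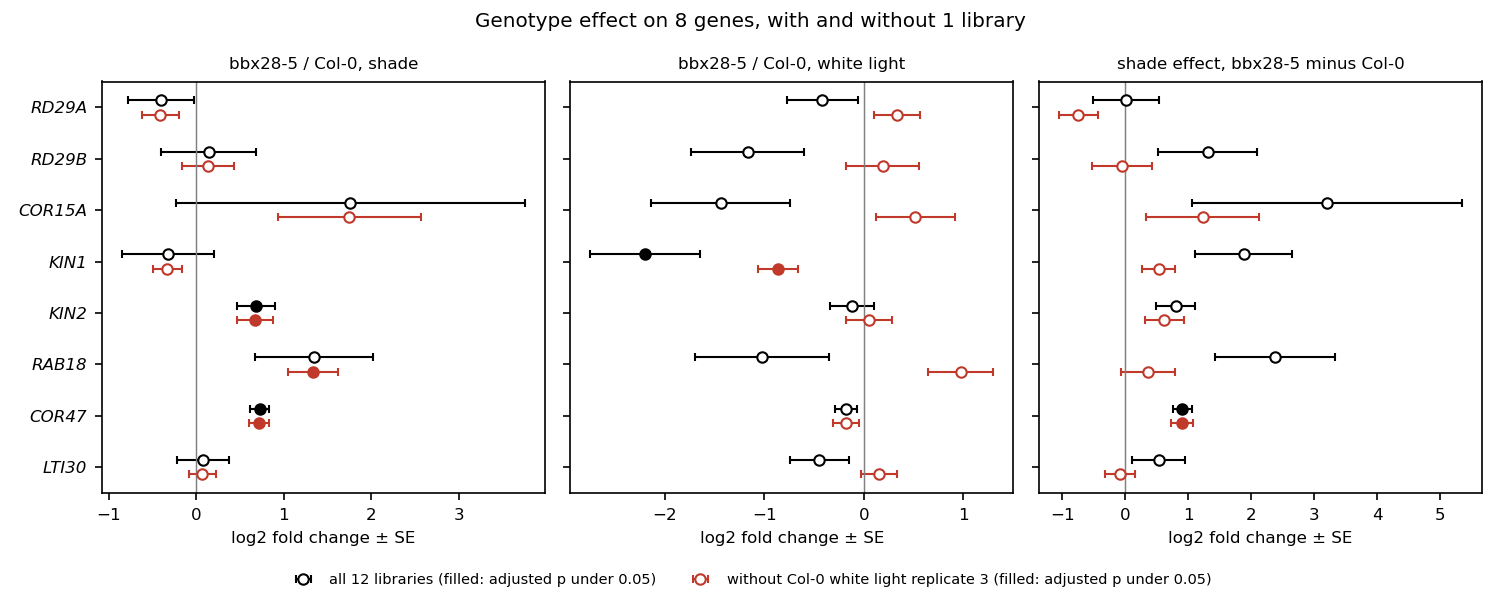
Log2 fold change of bbx28-5 over Col-0 in shade and in white light, and the difference between the shade effects of bbx28-5 and Col-0 (x axes, with SE), drawn as before for 8 genes. Filled under both choices of libraries are COR47 and KIN2 in shade, KIN1 in white light and COR47 for the difference; in white light 6 genes lie on opposite sides of 0 under the 2 choices.

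CBF1, CBF2 and DREB2A, upstream factors of the genes above, were higher in shade in both genotypes. CBF1, a cold-induced activator, had 13, 10 and 11 counts in bbx28-5 shade, against 0 in all 3 libraries in white light, at least 15.6-fold higher with the floor of 3 counts taken over the group. In Col-0 it had 19, 27 and 24 counts in shade, against 1, 0 and 0 in white light, a ratio of 72.1 (exact 95% interval 12.5 to 2890, counting error only). CBF2 read 5.98, 2.77 and 3.88 CPM in bbx28-5 shade, against 0.613, 0.227 and 0.775 CPM in bbx28-5 white light. In Col-0 CBF2 read 7.27, 6.52 and 7.48 CPM in shade, against 1.21, 0.844 and 1.13 CPM in white light. CBF2 rose in shade in both (log2 fold change 2.96 and 2.72, adjusted p = 5.59e-06 and 1.90e-06, edgeR) and in shade was lower in bbx28-5 than in Col-0, by -0.75 (adjusted p = 0.0322). CBF3 had 7 counts or fewer in every library and was not tested. DREB2A, the drought and heat counterpart, read 55.4, 53.0 and 61.2 CPM in bbx28-5 shade, against 10.8, 12.3 and 11.3 CPM in white light. DREB2A in Col-0 read 31.9, 32.5 and 29.5 CPM in shade, against 7.96, 9.75 and 10.2 CPM in white light, and its genotype difference in shade was 0.85 ± 0.104 (adjusted p = 4.16e-05, edgeR), opposite in sign to that of CBF2. Of 14 tested cold and drought regulators, shade raised 10 and lowered 1 in each genotype, with median log2 fold changes of 1.23 in bbx28-5 and 0.81 in Col-0, where 67.5% and 59.4% of all tested genes passed in either direction. In shade 4 of them were higher and 1, CBF2, lower in bbx28-5 than in Col-0, a share close to the 35.4% of all genes. These counts were the same without Col-0 white light replicate 3.

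Other cold and drought targets included genes whose shade effect was larger in bbx28-5 than in Col-0. GOLS1, which encodes a galactinol synthase of raffinose synthesis, read 678, 723 and 865 CPM in bbx28-5 shade, against 20.6, 19.9 and 21.4 CPM in bbx28-5 white light. In Col-0 GOLS1 read 192, 160 and 176 CPM in shade, against 17.3, 20.7 and 21.8 CPM in white light. The shade libraries of bbx28-5 were separate from and above those of Col-0, and the shade effects differed by 2.05 ± 0.169 (edgeR, adjusted p = 4.34e-05). The dehydrin gene ERD10, a close relative and chromosomal neighbour of COR47, differed in the same way by 1.29 ± 0.154 (adjusted p = 3.74e-04), COR413-IM1, for a chloroplast inner membrane protein, by 1.92 ± 0.302 (adjusted p = 0.00193), and LEA14 by 1.20 ± 0.228 (adjusted p = 0.00587). ERD10 and COR413-IM1 were also lower in bbx28-5 than in Col-0 in white light, by -0.61 ± 0.110 and -1.30 ± 0.234 (adjusted p = 0.00288 and 0.00303, edgeR). Of the 22 targets, all tested, shade raised 15 and lowered 3 in bbx28-5 and raised 9 and lowered 4 in Col-0, with medians of 1.57 and 0.47. The share passing in Col-0 was that of all tested genes, 59.4%, and in bbx28-5 the share of all genes was 67.5%. Without Col-0 white light replicate 3 these counts were 17 and 3 in bbx28-5, and 11 and 2 in Col-0. In shade 10 were higher and 1 lower in bbx28-5 than in Col-0, where 35.4% of all tested genes passed in either direction. The shade effects differed for 5, all more positive in bbx28-5, where 10.3% of all tested genes passed. Without Col-0 white light replicate 3, 5 were more positive and 1 less, where 6.17% passed. RD22, a drought gene induced by abscisic acid, fell in shade in both genotypes, by -1.19 ± 0.152 in bbx28-5 and -1.75 ± 0.155 in Col-0 (adjusted p = 8.39e-06 and 2.82e-07, edgeR).

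**Figure D5:**
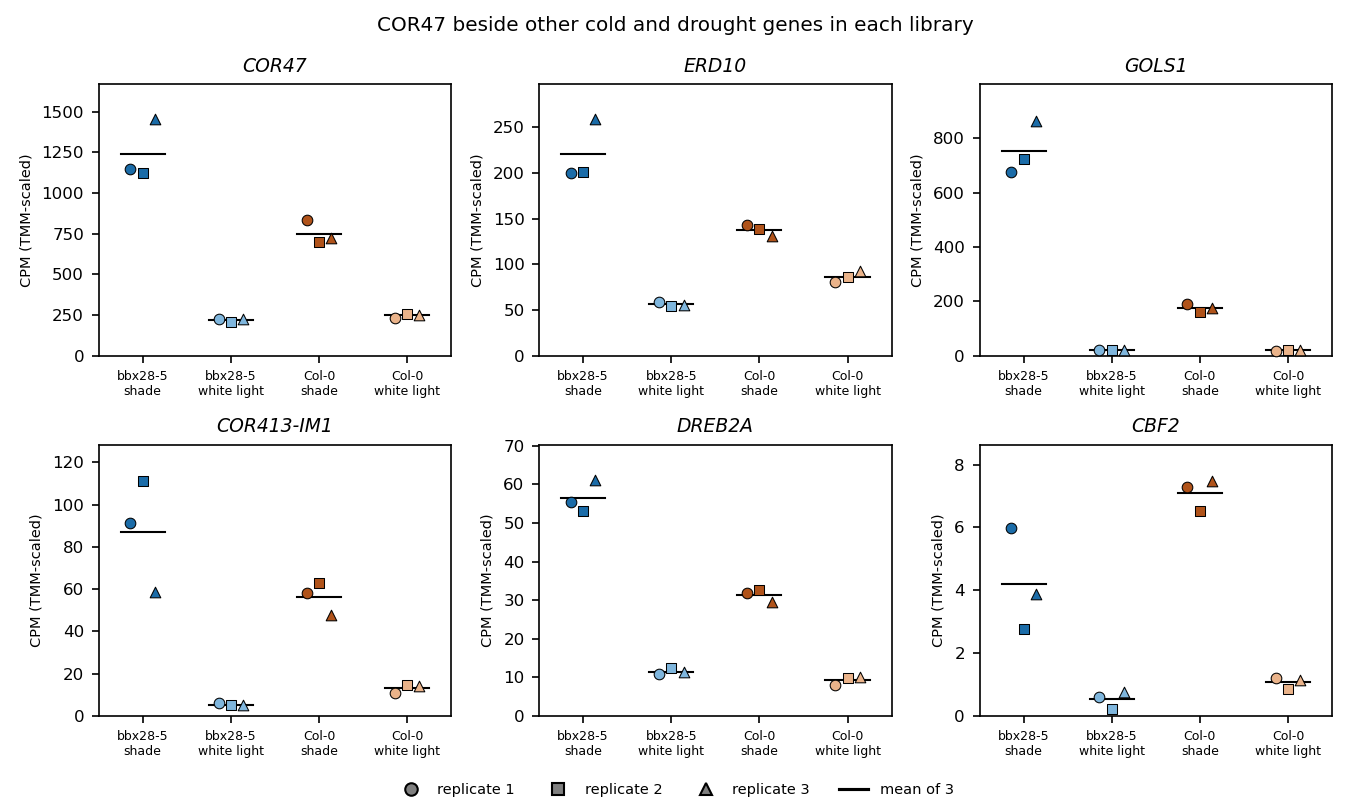
TMM-scaled CPM (y axes start at 0 and differ between panels) of COR47 and 5 other cold and drought genes in 12 libraries; symbols mark the replicate number and bars the mean of 3. In 5 panels the bbx28-5 shade group has the highest mean, and for CBF2 the Col-0 shade group does.

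The abscisic acid pathway list, from synthesis to transcription factors, held 31 genes, all tested. Shade raised 20 and lowered 8 of them in bbx28-5 and raised 17 and lowered 4 in Col-0, with medians of 1.04 and 0.64, against the same 67.5% and 59.4% of all genes. The counts were 21 and 8 in bbx28-5, and 19 and 3 in Col-0, without Col-0 white light replicate 3. RD26, a NAC factor induced by drought and abscisic acid, rose in both (2.06 ± 0.0862 in bbx28-5 and 1.89 ± 0.0859 in Col-0, adjusted p = 1.20e-10 and 4.75e-10, edgeR), as did the bZIP gene GBF3 (2.22 ± 0.110 and 1.78 ± 0.109, adjusted p = 5.57e-10 and 7.47e-09). ABA1, which encodes zeaxanthin epoxidase, fell in both, by -1.58 ± 0.0946 in bbx28-5 and -1.39 ± 0.0939 in Col-0 (adjusted p = 3.56e-09 and 1.99e-08, edgeR). Between genotypes in shade 7 were higher and 4 lower in bbx28-5, a share close to the 35.4% of all tested genes. The shade effects differed for 2, where 10.3% of all tested genes passed. These were SNRK2.3, a kinase of abscisic acid signalling, by 1.05 ± 0.149 and ANAC055, a NAC factor, by 1.60 ± 0.259 (adjusted p = 0.00107 and 0.00237, edgeR). Of 9 light and clock factors known to act on CBF genes, shade raised 4 and lowered 2 in each genotype, with medians of 0.07 and 0.17, a share close to that of all genes and the same without Col-0 white light replicate 3. PRR5 and PRR7, clock repressors of CBF genes, rose in both (PRR5 by 2.43 in bbx28-5 and 1.46 in Col-0), while the shade factor PIF7 and the clock gene LHY fell in both. In shade 6 of the 9 were higher in bbx28-5, where 35.4% of all tested genes passed in either direction. CCA1 was higher by 1.32 ± 0.100 (adjusted p = 1.14e-06, edgeR). Like RAB18 and COR15B, the named genes CBF3, DREB2A, GOLS1, ADH1, GBF3, SNRK2.3 and PIF7 overlap genes on the opposite strand. Reads of such pairs may not be separated.

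Some seed maturation transcripts, several of them also targets of abscisic acid, were higher in bbx28-5 than in Col-0. Of 6 seed maturation markers 5 were higher in bbx28-5 than in Col-0 in shade and 3 in white light, with medians of 4.06 and 2.01 on the log2 scale, and without Col-0 white light replicate 3 these were 5 and 4. Of all tested genes 35.4% and 9.88% passed in these comparisons in either direction, and 33% and 6.98% without that library. Their summed level ranged from 103 to 529 CPM in bbx28-5 shade, 115 to 191 CPM in bbx28-5 white light, 48.8 to 118 CPM in Col-0 shade and 53.8 to 97.9 CPM in Col-0 white light. In Col-0 SESA3 was at 0 in 2 libraries and at most 0.712 CPM in the others, against 18.8 to 158 CPM in bbx28-5. CRA1 overlapped between the genotypes, at 254, 112 and 38.9 CPM in bbx28-5 shade, against 39.6, 103 and 70.5 CPM in Col-0 shade. Its ranges overlapped in white light too. Within bbx28-5 shade, replicate 1 had the highest summed level of seed markers as well as the highest RAB18, RD29B and RD29A. It also had the lowest KIN1, COR15A and KIN2 of its group, KIN2 at 44.1 CPM against 88.1 and 51.2 CPM in replicates 2 and 3. The part of these transcripts in the differences of RAB18, RD29B or KIN2 was not tested.

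The genes most like the 8 across libraries depended on Col-0 white light replicate 3. Over all 12 libraries the 10 genes with the highest Pearson correlation of log2 CPM with the mean of the 8 were ADH1 (r = 0.928), INT2 (0.894), LTP3 (0.861), AT1G16850, AT3G02480, AT4G31830, GSTU4, C/VIF1, LTP4 and AT1G63240 (0.822). Over the 11 libraries without it they were PME31 (r = 0.986), CYP81D4 (0.984), XRCC2 (0.983), AT1G04790, AT1G70100, AT4G10070, RALF23, AT4G00780, AT5G19030 and HAM1 (0.976). The 2 sets of 10 shared 0 genes. Libraries of a group share genotype and light, so these values describe the order of libraries and carry no test. The mean log2 CPM of the 8 was 5.04, 5.10 and 5.01 in bbx28-5 shade, 4.27, 4.28 and 4.50 in bbx28-5 white light, 4.61, 4.87 and 4.57 in Col-0 shade, and 4.25, 4.16 and 6.07 in Col-0 white light, so replicate 3 of the last group was the highest of all 12.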

How the data were processed

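RNA sequencing of whole seedlings gave 12 libraries in 4 groups of 3, grouped by the labelled genotype and light. The authors deposited raw gene counts (32833 genes) and a filtered table of log2 CPM (19724 genes), used here as an alternative choice of genes. Per the submitters' processing notes the tools were FastQC, HISAT, SAMtools, HTSeq and edgeR on TAIR10, with no versions; the sources used here give no read length or strand setting; per the labels the kit was TruSeq Stranded mRNA. From the counts, genes were kept with filterByExpr, scaled by TMM and fitted with edgeR 4.0.16 (R 4.3.3) by 1 quasi-likelihood model with a mean per group (8 residual degrees of freedom), and p was adjusted after Benjamini and Hochberg over all 19711 genes tested, at a threshold of 0.05. The procedure was tested on simulated data, with changes placed only in genes of higher counts and no library made to stand apart. That run does not cover genes near the floor, such as COR15A, or a library like Col-0 white light replicate 3. SE is the log2 fold change over the root of F. CPM carry SD where stated; floors and intervals cover counting error only. limma 3.58.1 and DESeq2 1.42.0 served as alternatives, beside other scalings, filters, a replicate block and leaving out libraries. The 9 genes, the other gene lists and the motifs were chosen with earlier results of these data known. Named genes were the 9, CBF1 to CBF3, and per list and comparison up to 4 with the smallest adjusted p, plus the 10 genes most alike by correlation. RAP2.1, SESA3, CRA1, WUS, BBX28 and the HAI genes were named after their values were seen. Sequences and gene models came from RefSeq's TAIR10.1 annotation, in which all 9 genes were found. Replicate numbers were not used to pair libraries. Residuals of same-numbered libraries correlated at -0.123 to 0.0975, with no differently numbered pairs beside them, so a batch shared by replicate number was not tested.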

Additional observations from a re-analysis of the deposited data

Results flagged for a closer look

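The shade effect on COR47 differed between the genotypes: its log2 fold change of shade over white light was 2.51 in bbx28-5 and 1.60 in Col-0, a difference of 0.907 (edgeR quasi-likelihood test of the difference, adjusted p = 0.00322). It ranged from 0.806 to 1.00 when each library was left out in turn, and was 0.619 (adjusted p = 0.0278) with total counts as the scaling, which shifts the median of all genes in this comparison by -0.29.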

How the results depend on the processing

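Counts of the 8 genes past the threshold that moved by over 1.5 times and log2 fold changes that turned direction are given here; with DESeq2 size factors, a robust spread or the genes of the authors' filtered table, all 40 fold changes kept their direction and their side of the threshold. Total-count scaling moved the median of all genes by -0.339 (shade, bbx28-5), -0.0491 (shade, Col-0), -0.303 (genotype, shade), -0.0127 (genotype, white light) and -0.291 (difference of the shade effects). For shade in bbx28-5 it gained RD29A and lost RD29B, so the count stayed at 3. It left 1 gene past the threshold between genotypes in shade, where RD29B was -0.138 and LTI30 -0.2275, and gave RD29A a difference of shade effects of -0.2579. DESeq2's Wald test gave an adjusted p for only 35 of the 40 fold changes, and these kept their direction and their side of the threshold. It called 1 gene for shade in Col-0, where COR15A was among those without an adjusted p. With limma's sample weights 5 genes passed for shade in bbx28-5, 3 for shade in Col-0 (RD29B added, 0.991, adjusted p = 0.0155) and 3 between genotypes in shade (RAB18 added); RAB18 was 0.2754 and KIN1 0.05009 for shade in Col-0, LTI30 -0.03911 between genotypes in shade, and RD29A -0.05781 in the difference. Without a filter 5 passed for shade in bbx28-5, and RD29A was -0.001934 in the difference. A fit of only the groups compared called 7 for shade in bbx28-5 and 2 between genotypes in white light, and between genotypes in shade gained RAB18 and lost KIN2; it gives no difference of shade effects. The replicate block gave 5 for shade in bbx28-5 (RAB18 and COR15A added) and -0.1738 for RD29A in the difference, and changed no other call. Whether the numbers pair the libraries was not tested. With Col-0 white light replicate 3 and bbx28-5 shade replicate 2 both left out, 8 passed for shade in bbx28-5, 7 for shade in Col-0, 5 and 3 between genotypes in shade and white light, and 2 in the difference. Shade in Col-0 then gave RD29A 0.147, RAB18 1.215 and KIN1 0.7178, and the genotype difference in shade gave LTI30 -0.08918. White light gave RD29A 0.337, RD29B 0.185, RAB18 0.9667, COR15A 0.5281, KIN2 0.05297 and LTI30 0.1617, and the difference gave RD29A -0.4702 and LTI30 -0.2509. Past the threshold among these were RD29A and RAB18 in white light (edgeR, adjusted p = 0.0127 and 0.00670) and RD29A in the difference (adjusted p = 0.0190). Leaving out each library in turn gave counts of 2 to 8 for shade in bbx28-5, 2 to 6 for shade in Col-0, 1 to 3 and 0 to 1 between genotypes in shade and white light, and 1 to 3 in the difference. Over these fits shade in Col-0 ranged from -0.9117 to 0.1482 for RD29A, -0.03686 to 1.737 for RD29B, -1.273 to 1.226 for RAB18, -1.039 to 0.7196 for KIN1, -0.001086 to 0.311 for KIN2 and -0.2361 to 0.6967 for LTI30. The genotype difference in shade ranged from -0.2263 to 0.4744 for RD29B and -0.05849 to 0.2115 for LTI30. In white light it ranged from -0.7067 to 0.3334 for RD29A, -1.579 to 0.1874 for RD29B, -1.515 to 0.9737 for RAB18, -1.91 to 0.5179 for COR15A, -0.2611 to 0.05097 for KIN2 and -0.7169 to 0.154 for LTI30. The difference ranged from -0.7421 to 0.3264 for RD29A, -0.05377 to 1.712 for RD29B and -0.0833 to 0.8258 for LTI30. Where a setting alone moved a value, the cause was not tested. COR15A and COR15B are limited by depth, with counts near the floor of 3 in shade.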
